A study of Rattus norvegicus with 12 samples.

Results

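Parp9, Parp10, Parp12, Parp14 and Dtx3l were followed in rat hepatocytes exposed to interferon alpha. The genes were chosen by symbol in the platform annotation, and they are read by 6 probe sets of 31042, standing for 5 genes of 14217 with a name. Parp14 has 2 probe sets (1372034_at and 1379613_at), and the other genes have 1 each: Parp9 (1376144_at), Dtx3l (1374718_at), Parp10 (1376056_at) and Parp12 (1380071_at). The cells were primary hepatocytes, the main cell type of the liver put into culture straight from the organ, of Wistar rats. They were freed with collagenase, purified over Percoll, and treated on the day after isolation. The 4 groups of 3 arrays each were rat interferon alpha at 250 U/ml for 6 h, untreated cells at 6 h, interferon alpha at the same dose for 3 h, and untreated cells at 3 h. All 4 groups share strain, isolation and the culture before treatment, and the age of the animals is not given. The labels call the samples biological replicates 1 to 3, but nothing states that each came from a separate animal, so the p-values measure the spread between these samples.

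ADP-ribosyltransferases take ADP-ribose from NAD and attach it to proteins or nucleic acids. Parp1 and Parp2 build chains of it at broken DNA, whereas Parp10, Parp12 and Parp14 attach single units, as known from human and mouse proteins. Parp9 binds to Dtx3l, a ubiquitin ligase of the deltex family, and the pair acts as a complex in human cells. In human and mouse cells these genes are known to respond to interferon, whose receptor activates a complex of transcription factors that contains Stat2 and Irf9. That complex binds DNA letters in which GAAA recurs, the interferon-stimulated response element.

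The promoter windows are shown because the genes were measured under interferon and this element is the known point of contact. RefSeq windows of 300 bases (assembly GRCr8, 250 bases before the transcription start and 50 from it on) were given for 4 of the 5 genes, and not for Parp10. The window of Dtx3l, chr11:78319975-78320274 on the plus strand, reads as follows, with GAAANGAAANNGAAA in capitals.
Dtx3l: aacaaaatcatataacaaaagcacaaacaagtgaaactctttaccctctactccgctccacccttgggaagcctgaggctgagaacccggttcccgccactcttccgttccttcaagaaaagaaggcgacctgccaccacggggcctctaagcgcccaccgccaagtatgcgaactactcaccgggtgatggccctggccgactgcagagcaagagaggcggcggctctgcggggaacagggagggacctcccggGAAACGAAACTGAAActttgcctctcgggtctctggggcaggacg
Matches with 5 flanking bases on each side are set under each other below, on the strand that reads GAAA, with the same letters in capitals.
Dtx3l: cccggGAAACGAAACTGAAActttg
Parp14: tccagGAAATGAAAGTGAAAgaagt
Parp12: ggaagGAAACGAAACCGAAAgccgg
The Dtx3l match lies just after the transcription start, at positions 6 to 20 on the strand of the gene. In the Parp14 window (chr11:78407884-78408183, plus strand) the match spans positions -81 to -67, again on the strand of the gene. In the Parp12 window (chr4:68850492-68850791, minus strand) it spans positions -18 to -4 on the opposite strand.

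The shorter motif GAAANNGAAA, searched on both strands, was found in 3 of the 4 windows and in 1312 of 33469 promoters of the assembly (3.92%). It forms part of each long match, so that both motifs mark the same places. The 15-letter motif, chosen after these windows had been seen, was in the same 3 windows and in 32 of the 33469 promoters (0.0956%). The windows of other ADP-ribosyltransferases held the short motif in 1 of 11 and the long motif in 0 of 11, and Parp1 and Parp2 had a match to neither. The Parp9 window (chr11:78318962-78319261, minus strand) had no match, which says only that these letters are not in that window. Parp9 and Dtx3l overlap on chromosome 11 and run on opposite strands, and the Dtx3l match lies within the Parp9 gene record. That match, at chr11:78320230-78320244, is outside the Parp9 window, on the side before the transcription start used there. Parp14 follows on the same chromosome, with the pseudogene Casp6-ps1 between it and Dtx3l. Parp10 overlaps Plec on chromosome 7, and Parp12 overlaps Tbxas1 on chromosome 4. A match is a description of letters, and binding was not measured.

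**Figure D1:**
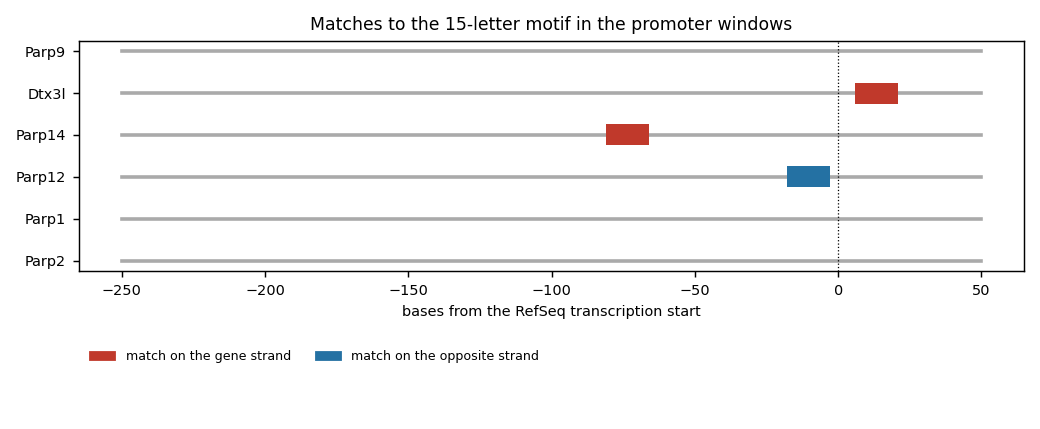
Matches to the 15-letter motif in the 300-base promoter windows. The x axis gives bases from the RefSeq transcription start, grey lines are the windows and bars are matches on the strand of the gene (red) or the opposite strand (blue). Dtx3l, Parp14 and Parp12 each have 1 match, and Parp9, Parp1 and Parp2 have none.

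Levels are on the log2 scale of RMA (robust multi-array average), a method that gives all arrays nearly the same distribution, so that a shift shared by most transcripts would not show. Array medians ran from 5.16 to 5.21, and the 6 probe sets lay above the array median on all 12 arrays. Hepatocyte markers (8 of 8 measured) averaged 12.9 to 13.1 on every array. Kupffer cell and macrophage markers (8 of 10 measured) averaged 6.65 to 6.73 on the arrays of replicate 1, 5.45 to 5.62 on those of replicate 2 and 5.84 to 6.00 on those of replicate 3. Liver endothelial markers (6 of 8 measured) averaged 4.19 to 4.43 on the arrays of replicate 1 and 3.82 to 3.98 on those of replicates 2 and 3. Cholangiocyte markers (5 of 6 measured) averaged 5.40 to 5.49 on the arrays of replicate 1 and 5.55 to 5.72 on the others. The replicates thus differed in these marker averages, whereas treated and control arrays of the same number differed little. Same-numbered arrays also deviated together over all probe sets, so a fit with the replicate number as a block is given wherever it changes a call. With the block the standard error of the 6 h change fell from 0.29 to 0.07 for Epcam (cholangiocyte). For the endothelial markers Lyve1 and Pecam1 it fell from 0.76 to 0.21 and from 0.24 to 0.07. It changed far less for the rest of both lists, such as Cftr (0.16 to 0.13) and Stab2 (0.11 to 0.09). The cholangiocyte and endothelial averages therefore do not describe each marker. None of the lists of Kupffer, endothelial, stellate, cholangiocyte, lymphocyte and neutrophil markers had a member called at 6 h (limma, adjusted p under 0.05). Of all genes 0.563% were called higher, and at so low a share the lack of a call in short lists says little. The median changes of these lists ran from -0.09 to 0.06.

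The longer exposure, 6 h, was compared with untreated cells of the same time to find genes that respond to interferon alpha. All 5 genes rose, by 1.84 to 2.26 on the log2 scale, which is 3.59-fold to 4.78-fold. Parp9 and Dtx3l rose together with the mono-ADP-ribosyltransferases Parp10, Parp12 and Parp14. The 6 probe sets were called higher in 6 of 6 cases, against 0.387% of all probe sets (120 of 31042), and with the replicate block also in 6 of 6, against 1.06%. Every interferon array was above every control in 6 of 6, against 4.29% of all probe sets. In cultured cells measured in bulk, more cells of a type and more RNA per cell cannot be told apart. Which cells of the culture held the higher levels was not measured.

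Parp9, the partner of Dtx3l, carries macro domains, folds that bind ADP-ribose. At 6 h it measured 10.60, 11.19 and 10.90 on the interferon alpha arrays of replicates 1, 2 and 3, against 9.30, 9.09 and 8.36 on the controls. The highest control lay more than 1 log2 unit below the lowest interferon array. Parp9 averaged 10.90 ± 0.29 with interferon alpha and 8.92 ± 0.50 in control cells (SD, n = 3 each). It rose by 1.98 ± 0.28 (SE of the limma fit, 3.94-fold, adjusted p = 0.0101).

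Dtx3l, the ubiquitin ligase of the pair, measured 10.18, 10.63 and 9.88 in interferon alpha replicates 1, 2 and 3 at 6 h, against 8.34, 8.26 and 7.31 in the controls. Control replicate 3 was the lowest of these 6 arrays, and the groups did not overlap. Its means were 10.23 ± 0.38 with interferon alpha and 7.97 ± 0.57 without (SD, n = 3 each). The rise of 2.26 ± 0.35 (SE, 4.78-fold, limma adjusted p = 0.0192) ranked 55 among the 31042 probe sets by size. The other genes ranked between 56 and 92.

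Parp14 joins macro domains to a transferase domain and is known in mouse cells as a partner of Stat6. Its brighter probe set, 1372034_at, measured 8.84, 9.54 and 9.37 in interferon alpha replicates 1, 2 and 3 at 6 h, against 7.65, 7.26 and 6.79 in the controls. The second, 1379613_at, measured 8.90, 9.44 and 9.36 with interferon alpha, against 7.47, 6.97 and 6.53 in the controls. Both probe sets put replicate 2 highest among the treated arrays and replicate 3 lowest among the controls. The rise was 2.02 ± 0.28 (SE, 4.06-fold, limma adjusted p = 0.00842) on the first and 2.25 ± 0.25 (SE, 4.74-fold, limma adjusted p = 0.00325) on the second.

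Parp10, a mono-ADP-ribosyltransferase first known as a partner of Myc in human cells, measured 9.18, 9.58 and 9.38 in interferon alpha replicates 1, 2 and 3 at 6 h, against 7.77, 7.59 and 7.24 in the controls. Among the 6 probe sets it had the smallest change and also the smallest error. It rose by 1.84 ± 0.17 (SE, 3.59-fold, limma adjusted p = 0.00243), with means of 9.38 ± 0.20 under interferon alpha and 7.54 ± 0.27 without (SD, n = 3 each).

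Parp12, which has zinc fingers and restrains several viruses in human and mouse cells, measured 9.82, 10.38 and 9.87 in interferon alpha replicates 1, 2 and 3 at 6 h, against 8.42, 8.24 and 7.64 in the controls. The lowest interferon array was again above the highest control. It rose by 1.93 ± 0.27 (SE, 3.81-fold, limma adjusted p = 0.00842).

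The rises of Parp10 and of Parp14 on 1379613_at passed the threshold in 21 of 21 refits with other settings or with arrays left out. The others lost their call in some. In a fit on the 6 h arrays alone 3 of 6 probe sets were called, against 0.222% of all, and Parp9 (adjusted p = 0.0657), Dtx3l (0.0753) and Parp14 on 1372034_at (0.0572) were not. Without interferon alpha replicate 2 at 6 h, 2 of 6 were called, against 0.18% of all: Parp9 (limma adjusted p = 0.0719), Dtx3l (0.116), Parp14 on 1372034_at (0.0601) and Parp12 (0.0566) were not.

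**Figure D2:**
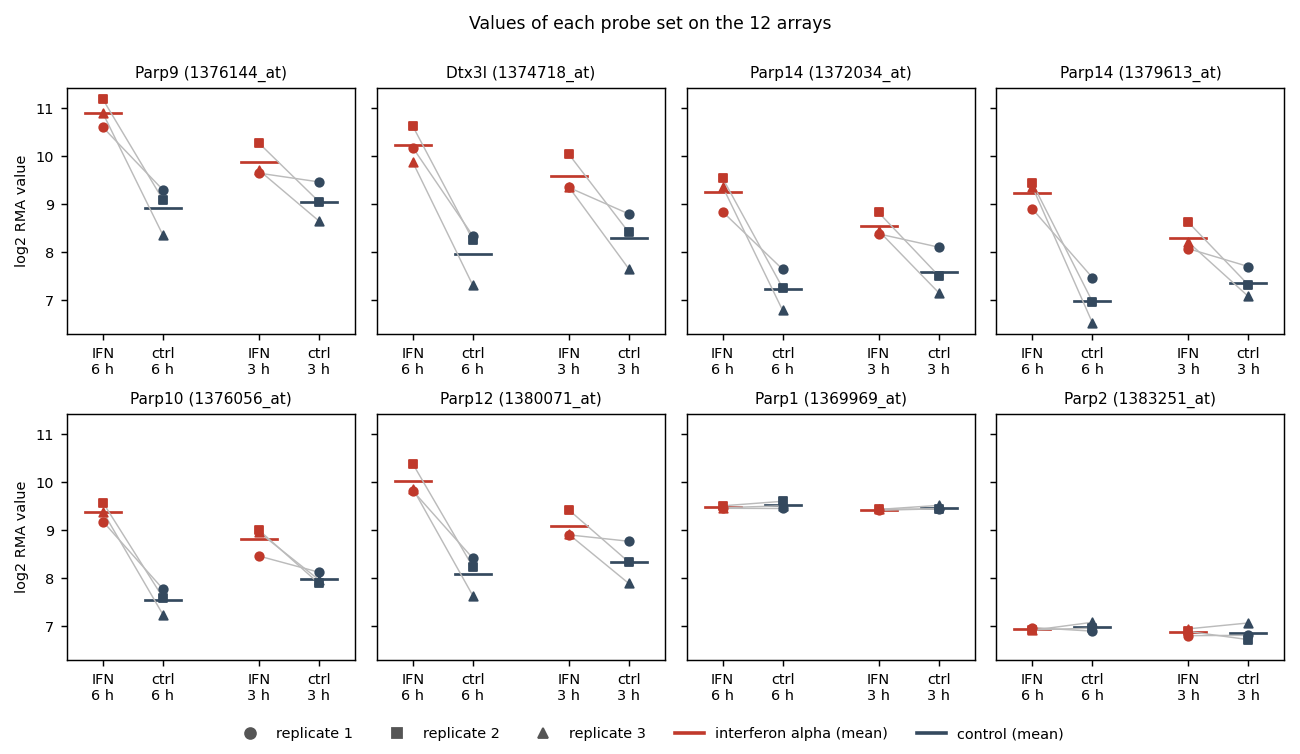
Log2 RMA values of the 6 probe sets, and of Parp1 and Parp2, on the 12 arrays. Symbols are replicates, grey lines join arrays of the same number, and horizontal bars are group means of 3 arrays. At 6 h the interferon alpha arrays (red) of all 6 probe sets lie above the controls (dark), while those of Parp1 and Parp2 overlap them.

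Parp1 and Parp2, the enzymes of DNA repair, served as comparison. Parp1 ran from 9.46 to 9.51 on the interferon alpha arrays at 6 h, against 9.45 to 9.60 on the controls, and the change was -0.04 ± 0.07 (SE, 95% interval -0.19 to 0.11). For Parp2 the change was -0.04 ± 0.10 (SE, 95% interval -0.26 to 0.17). At 3 h the changes were -0.04 ± 0.07 for Parp1 and 0.01 ± 0.10 for Parp2 (SE). The Parp1 arrays did not overlap at 3 h, with 9.42 to 9.44 under interferon alpha, all below the controls at 9.44 to 9.52, but the change did not pass the test (limma adjusted p = 1.00). How many of all probe sets lay below their controls in this way was not counted. At 6 h the intervals of Parp1 and Parp2 lie below the smallest lower limit of the 5 genes, which was 1.34 for Parp12. At 3 h they were not all apart: the Parp2 interval, -0.20 to 0.23, overlapped those of Parp9 (0.20 to 1.44) and Parp12 (0.16 to 1.33).

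The comparison at 3 h asked the same after the shorter exposure. Values of all 5 genes were higher with interferon alpha, by 0.75 to 1.30 on the log2 scale, but 0 of 6 probe sets passed the test, against 0.00644% of all (2 of 31042). At an unadjusted p under 0.05 limma placed 646 probe sets higher. Every interferon array was above every control for 6 of 6, against 4.53% of all probe sets. With the replicate block 1 of 6 was called, against 0.0934% of all, and that was Dtx3l.

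Dtx3l measured 9.35, 10.05 and 9.36 in interferon alpha replicates 1, 2 and 3 at 3 h, against 8.80, 8.42 and 7.66 in the controls. The change was 1.30 ± 0.35 (SE, 2.46-fold, limma adjusted p = 1.00), and with the replicate block 1.30 ± 0.19 (SE, limma adjusted p = 0.0499), just inside the threshold. This call held in 2 of 21 refits, the block and the block without replicate 1. It was not made with the block set within each time (limma adjusted p = 0.159), nor in the blocked fit without replicate 2 (0.963) or without replicate 3 (1.00). Replicate 1 had a difference of 0.55 between treated and control arrays, against 1.63 in replicate 2 and 1.71 in replicate 3.

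Parp9 measured 9.65, 10.28 and 9.71 in interferon alpha replicates 1, 2 and 3 at 3 h, against 9.47, 9.06 and 8.65 in the controls. The interferon array of replicate 1 stood only 0.18 above its control, the smallest gap but one among the 6 probe sets. The change of 0.82 ± 0.28 (SE, 1.77-fold) had a limma adjusted p of 1.00.

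Parp10 measured 8.46, 9.00 and 8.96 in interferon alpha replicates 1, 2 and 3 at 3 h, against 8.12, 7.89 and 7.97 in the controls. Its control arrays were the closest together of the 6 probe sets. The change of 0.82 ± 0.17 (SE, 1.76-fold) had a limma adjusted p of 0.535.

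Parp12 measured 8.90, 9.43 and 8.92 in interferon alpha replicates 1, 2 and 3 at 3 h, against 8.77, 8.34 and 7.89 in the controls. In replicate 1 treated and control arrays were 0.13 apart, the smallest gap of all. The change was 0.75 ± 0.27 (SE, 1.68-fold, limma adjusted p = 1.00). Parp14 had changes of 0.96 ± 0.28 on 1372034_at and 0.94 ± 0.25 on 1379613_at (SE), with limma adjusted p-values of 1.00.

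Replicate 1 had the smallest difference between treated and control arrays for 6 of 6 probe sets at both times. Its differences ran from 1.20 to 1.84 at 6 h and from 0.13 to 0.55 at 3 h. In replicates 2 and 3 they ran from 1.98 to 2.83 at 6 h and from 0.99 to 1.71 at 3 h. Among control arrays, replicate 1 was highest for 6 of 6 probe sets at 6 h and for 6 of 6 at 3 h. Among interferon alpha arrays it was lowest for 5 of 6 at 6 h and for 6 of 6 at 3 h. Replicate 1 also had the highest average of Kupffer cell and endothelial markers and the lowest average of cholangiocyte markers. The part of these in its smaller differences was not tested. When replicate 1 was left out of the blocked fit, 6 of 6 probe sets were called higher at 3 h, against 0.358% of all. Leaving out the replicate with the smallest differences raises the mean change by itself. No other left-out array or replicate gave any of the 6 probe sets a call at 3 h. Without replicate 1 the changes were 1.14 for Parp9 (limma adjusted p = 0.00470), 1.67 for Dtx3l (0.000183), 1.30 and 1.22 for Parp14 (0.000925 and 0.00217), 1.05 for Parp10 (0.00707) and 1.06 for Parp12 (0.00144).

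**Figure D3:**
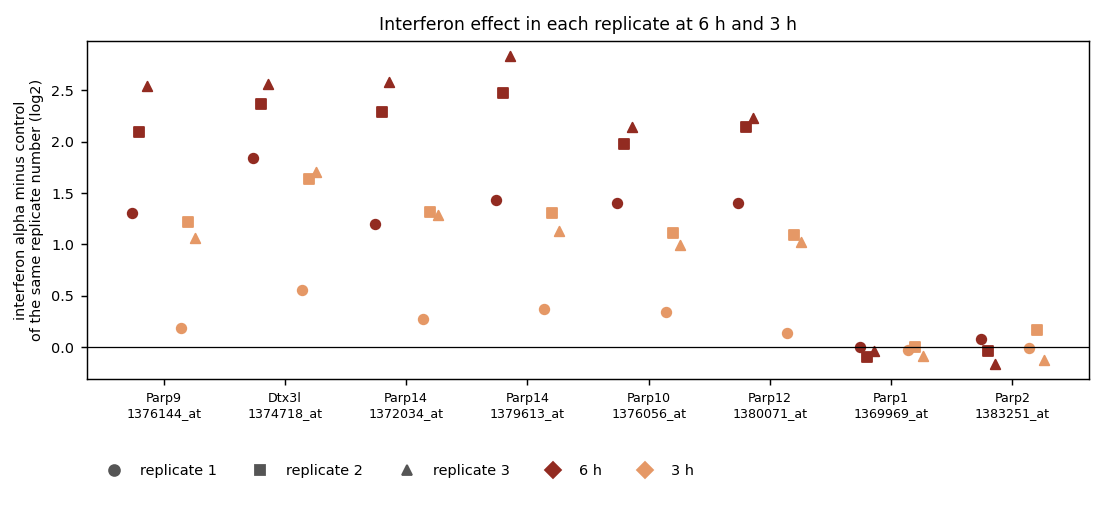
Interferon alpha minus control of the same replicate number, in log2 units, for the 6 probe sets and for Parp1 and Parp2 at 6 h (dark) and 3 h (light). Each symbol is 1 pair of arrays. The circles of replicate 1 lie lowest for all 6 probe sets at both times, from 1.20 to 1.84 at 6 h and from 0.13 to 0.55 at 3 h.

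Whether the effect at 6 h was larger than at 3 h was tested as a difference of differences. The values were 1.16 ± 0.40 for Parp9, 0.96 ± 0.50 for Dtx3l, 1.06 ± 0.39 and 1.31 ± 0.36 for Parp14, 1.03 ± 0.25 for Parp10 and 1.18 ± 0.38 for Parp12 (SE, log2). All 6 were positive, but 0 of 6 passed limma's adjusted test, against 0% of all probe sets, of which 364 were higher at an unadjusted p under 0.05. With the replicate block 0 of 6 passed as well, against 0% of all and 848 unadjusted. Without replicate 1 in the blocked fit 2 of 6 passed, against 0.058% of all. These were Parp14 on 1379613_at at 1.43 and Parp12 at 1.13, both with a limma adjusted p of 0.0377.

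Untreated cells at 6 h were compared with untreated cells at 3 h as the background of both effects. The values of the 6 probe sets were lower at 6 h by small amounts, with changes of -0.14 for Parp9, -0.32 for Dtx3l, -0.36 and -0.38 for Parp14, -0.46 for Parp10 and -0.24 for Parp12. None passed the test (0 of 6, against 0.0999% of all probe sets called lower). Parp10 was the exception in its arrays: its 3 controls at 6 h, 7.24 to 7.77, all lay below its 3 controls at 3 h, 7.89 to 8.12 (limma adjusted p = 0.394). For each of the 5 genes the order of group means was interferon alpha at 6 h, interferon alpha at 3 h, untreated at 3 h and untreated at 6 h. The arrays of the 2 untreated groups, at the low end of that order, overlapped for every gene but Parp10. The arrays of the 2 interferon alpha groups overlapped for Dtx3l alone among the 5 genes, and interferon alpha at 3 h did not overlap with untreated cells at 3 h for any of them. How many of all probe sets lacked overlap between the 2 times was not counted, so these separations between times are descriptions only.

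The related enzymes that were measured did not pass the test at 6 h. Of 9 other ADP-ribosyltransferases measured out of 12 listed, 0 were called, with a median change of 0.01 and a range of -0.05 to 0.23. Parp3, Zc3hav1 and Tnks were not measured, so nothing is known of them here. Parp8 and Parp11 averaged 3.19 and 4.37 over all arrays, below the array medians. The highest value was that of Tiparp, a mono-ADP-ribosyltransferase induced by dioxin. Tnks2, a tankyrase, had -0.005 ± 0.26 (SE). Over all 14217 genes the median was -0.02 and 80 rose (0.563%), and over the 5 genes the median was 1.98.

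Among deltex ubiquitin ligases other than Dtx3l, 3 of 4 were measured and 0 were called, with a median of -0.03. Dtx2 measured 6.48 to 6.61 on the interferon alpha arrays at 6 h, against 6.09 to 6.37 on the controls, without overlap. Of all probe sets 4.29% were separated in this way. Its change was 0.27 ± 0.10 (SE, unadjusted p = 0.0171 and adjusted p = 0.983 by limma). Dtx4 had -0.03 ± 0.08 and lay below the array median on every array.

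Enzymes that remove or bind ADP-ribose gave 0 calls among 11 measured of 12, with a median of 0.02. Rnf146, a ubiquitin ligase that reads chains of ADP-ribose, had 0.02 ± 0.09, and Nudt9, a pyrophosphatase that splits free ADP-ribose, had 0.30 ± 0.27 (SE).

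NAD is the substrate of the transferases. Of 21 measured genes of NAD synthesis and breakdown out of 24 listed, the median change at 6 h was -0.03 and 0 were called. With the replicate block 1 of 21 was called, against 1.45% of all genes called higher (206 of 14217). Tdo2, the first enzyme of the route from tryptophan, had -0.09 ± 0.35, and Aox1, an aldehyde oxidase, had -0.09 ± 0.15 (SE). The 1 gene called with the block was Nampt, the rate-limiting enzyme of NAD salvage, named after its values were seen. It measured 10.59, 10.54 and 10.21 in interferon alpha replicates 1, 2 and 3 at 6 h, against 10.07, 9.13 and 9.19 in the controls. The change was 0.99 ± 0.26 (SE, 1.98-fold, limma adjusted p = 0.348, and 0.00944 with the replicate block). A second Nampt probe set, 1396262_at, gave 1.03 ± 0.24 (limma adjusted p = 0.181, and 0.00146 with the block).

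**Figure D4:**
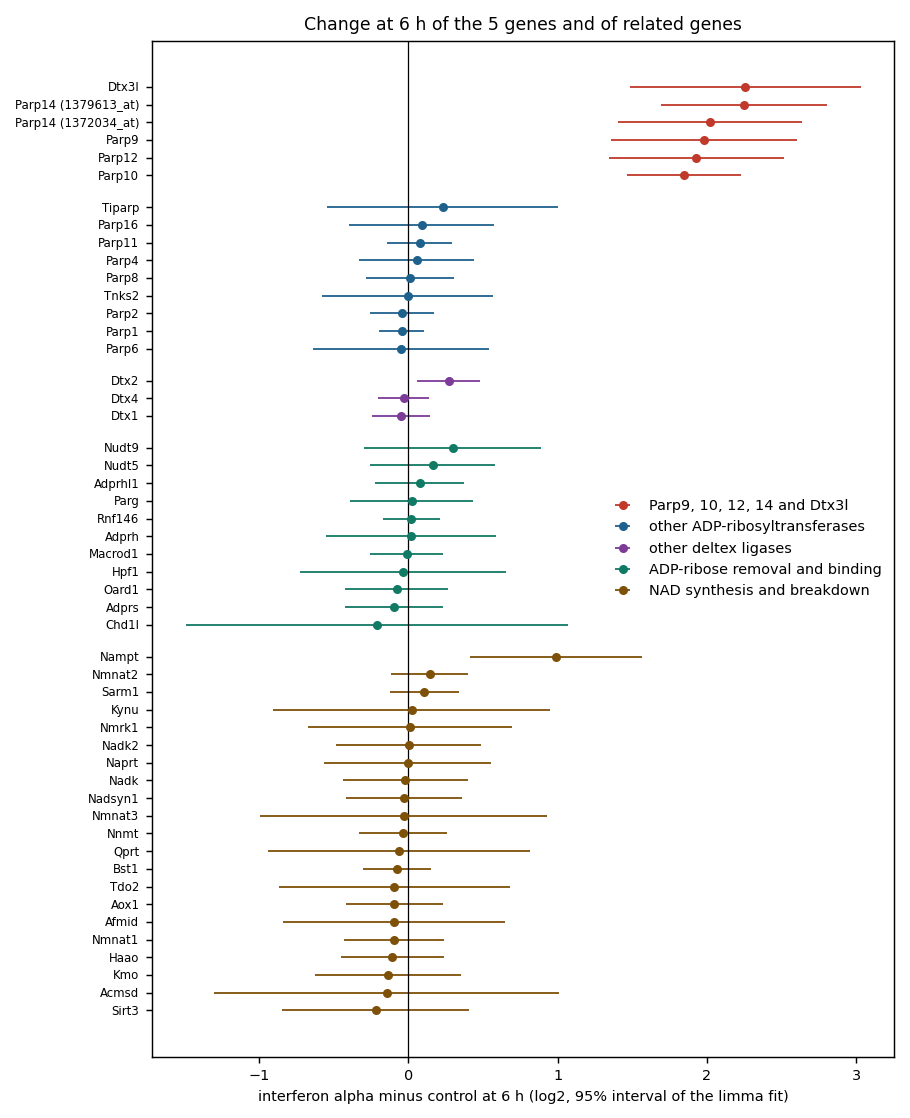
Change at 6 h (interferon alpha minus control, log2) of the 5 genes and of 4 groups of related genes. Points are limma estimates with 95% intervals. The 6 probe sets at the top lie between 1.84 and 2.26, whereas the other ADP-ribosyltransferases lie between -0.05 and 0.23.

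The chain that carries the interferon signal was measured for 8 of 9 listed genes, of which 3 rose at 6 h, with a median over the 8 of 0.08. Usp18, a protease that removes ISG15 and dampens the receptor, rose by 2.21 ± 0.35, Stat2 by 1.51 ± 0.21 and Irf9 by 1.20 ± 0.19 (SE, limma adjusted p = 0.0199, 0.00981 and 0.0209). The other 5, among them the receptor chains Ifnar1 and Ifnar2 and the kinases Jak1 and Tyk2, did not pass. At 3 h none of the 5 lists of related genes had a call.

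Likeness of pattern was measured as Pearson's r over the 12 arrays with 13982 other genes, each on its brightest probe set. These arrays share treatment and replicate, so r is a description. The 6 probe sets of the 5 genes make 15 pairs, 1 of them between the 2 probe sets of Parp14 (0.992). Over these pairs r ran from 0.946 to 0.996, and within groups, after each group mean was taken off, from 0.648 to 0.976. Parp9 was most like Parp12 (0.996), then Mpeg1, a pore-forming protein of phagocytes (0.989), Ifi44l (0.985), the RNA helicase Dhx58 (0.983) and Stat2 (0.982). Dtx3l was most like Ifgga2l1 (0.987), Fbxw17 (0.986), Dhx58 (0.981), Mpeg1 (0.977) and Parp12 (0.976). For Parp14 the order was Dhx58 (0.988), Stat2 (0.986), Parp12 (0.981), Parp9 (0.980) and Rig1 (0.980). Parp10 had Rig1 (0.990), Irgm (0.986), the nucleotide kinase Cmpk2 (0.985), Mitd1 (0.985) and the peptide transporter Tap1 (0.983). Parp12 had Parp9 (0.996), Mpeg1 (0.992), Dhx58 (0.987), Fbxw17 (0.987) and Nub1 (0.983). All of these genes rose at 6 h except Nub1, with a change of 0.62 (limma adjusted p = 0.0557), against 0.563% of all genes. They were picked for likeness to genes that rose, on the same arrays, so their rise follows largely from that choice. Parp10 shared none of its 5 nearest genes with Parp9, Dtx3l or Parp12, and 1 of them, Rig1, with Parp14.

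Among 11733 measured genes with a promoter window, 15 held the long motif, and 6 of these rose at 6 h (40%), against 0.571% of all. They were Dtx3l, Parp12, Parp14, Ifi44, Ogfr and Sp110. The 6 make up 8.96% of the 67 genes that rose. The short motif was in 351 of the 11733 windows. Of these, 29 belonged to genes that rose (8.26%, against 0.571% of all), and they are 43.3% of the 67. The 29 are Dtx3l, Parp12 and Parp14 and 26 other genes. Since the long motif was chosen after the windows of Dtx3l, Parp14 and Parp12 had been seen, its counts include the genes it came from. These are 3 of the 6 that rose, and 3 are others, so both long-motif shares were partly set by that choice.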

How the data were processed

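Total RNA was extracted with Trizol, and 5 ug of it was labelled and hybridised to Affymetrix arrays (source: the labels' protocols). Per the submitters' processing notes, the authors ran RMA with affy and R 2.10.0, which gave the deposited log2 values. Their probe set definition is not given in the sources. Depth does not apply to arrays, and their number, 3 per group, limits the precision.

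The 57 control probe sets were left out. Names came from the platform annotation: 20826 probe sets had 1 symbol, 436 had several and 9780 were unlisted. A gene stands on its brightest probe set where 1 value is needed. Limma 3.58.1 in R 4.3.3 (lmFit, eBayes) was fitted to all 12 arrays in 4 groups, with 8 residual degrees of freedom, two-sided, with Benjamini-Hochberg adjustment over the 31042 probe sets in each of 4 comparisons. The script was tested on simulated data. Deviations of same-numbered arrays from their group means correlated at 0.651 to 0.829 within a time (6 pairs) and at 0.479 to 0.736 across times (12 pairs). Arrays of different numbers gave -0.562 to -0.0747 (36 pairs). The numbers thus pair the arrays within and across times, with the replicate number in the titles as the source. Errors, intervals and p-values of a gene are from the fit without the block unless the block or a refit is named. Refits used the block, limma-trend, a filter on dim probe sets, renormalization, the arrays of 1 time, and left-out arrays.

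Named were all probe sets of the 5 genes, Parp1, Parp2, per list up to 4 called genes or else the 2 brightest, and the 5 genes most like each. An item withheld for evaluation is not reported here. The genes and lists were chosen with earlier results of these data known. Promoter sequences are RefSeq's (GRCr8).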

Additional observations from a re-analysis of the deposited data

How the results depend on the processing

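Refits of the 6 probe sets at 6 h kept direction and call in 114 of 127 cases and lost the call in 13. Of the 6, 3 were called on the arrays of that time alone, and 2 to 6 when arrays were left out. At 3 h, 120 of 127 refits kept direction and call and 7 gained a call: 1 of 6 was called with the replicate block, and 0 to 6 when arrays or replicates were left out. For the difference between times 119 of 121 refits stayed as they were, and 0 to 2 probe sets were called when arrays were left out. Dtx3l at 6 h had adjusted p-values up to 0.116 over its refits and lost the call without any 1 of 4 arrays: interferon alpha replicate 1 (0.0717) or 2 (0.116), or control replicate 2 (0.0538) or 3 (0.0690). In the blocked fit Parp9 was not called without replicate 3 (0.0504), nor Parp14 on 1372034_at without replicate 2 (0.0782) or 3 (0.0743). Called over all probe sets at 6 h were 120, and 329 with the block, 69 on the 6 h arrays alone and 56 without interferon alpha replicate 2 (higher values only). The replicate block changed no other call of the 6 probe sets than that of Dtx3l at 3 h. Averaging both Parp14 probe sets left 5 of 5 genes called at 6 h. Signs turned for values near 0 when arrays were left out. Without 1 array, Parp2 ran from -0.083 to 0.0095 at 6 h and from -0.060 to 0.11 at 3 h. In the blocked fits without 1 replicate it ran from -0.10 to 0.020 at 6 h and from -0.065 to 0.082 at 3 h. In untreated cells, 6 h minus 3 h ran from -0.35 to 0.14 for Parp9 and from -0.64 to 0.012 for Dtx3l. These refits used fewer arrays, and no other cause was tested. The array number limits the precision.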
